A study of Mus musculus with 11 samples.

Results

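The intrinsic (mitochondrial) route to apoptosis was followed through 10 genes in 3 kinds of sorted mouse embryonic motor neuron. The genes were the BH3-only members Hrk, Bcl2l11, Bbc3 and Pmaip1, the effectors Bax and Bak1, the guardians Bcl2, Bcl2l1 and Mcl1, and the p53 target Cdkn1a. A gene counted as measured where the array annotation gave its symbol as the only symbol of a probe set. By that rule 9 of the 10 genes were measured, by 28 probe sets of the 45037 tested, among 18193 genes measured in all, and Bax was not analysed here because no probe set in the annotation used carried its symbol alone. Values are those of the probe set with the highest mean for the gene, and any others serve as a check.

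The cells came from C57/BL6 embryos that all carried Hb9::GFP, a reporter in which regulatory sequence of Mnx1 (Hb9) drives green fluorescent protein in motor neurons. A rhodamine-coupled dextran was taken up from a nerve in trunk explants, the spinal cords were dissociated, and the motor neurons were sorted by fluorescence. Phrenic motor neurons, whose axons reach the diaphragm, gave 4 arrays, lateral motor column neurons filled from the radial nerve of the forelimb (LMC radial) gave 3, and neurons of segments C3-C5 with the reporter but labelled GFP-only (C3-C5 GFP-only) gave 4. The embryonic day, the number of embryos behind each array and the segment of the LMC radial neurons are not given in the sources used here, so the p-values measure the spread between arrays. In comparisons with LMC radial neurons, the segment a neuron came from and its type cannot be told apart.

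Motor neurons are made in excess and many die during embryonic life, when their axons have reached muscle and compete for trophic support. In this form of death BH3-only proteins bind and neutralise the Bcl-2 type guardians or directly activate Bax and Bak, which then permeabilise the outer mitochondrial membrane and release cytochrome c. In neurons deprived of trophic support the Jun kinase pathway raises the transcripts of Hrk and Bcl2l11, whereas p53 raises those of Bbc3, Pmaip1 and Cdkn1a. The last of these encodes p21, which stops the cell cycle and is not itself a Bcl-2 family protein.

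All 8 motor neuron markers fixed for the cell type check had a mean over the 11 arrays of at least 5 on the log2 scale, and Isl1 lay between 8.26 and 12.43. The array medians were 4.48 to 4.63, so a mean below 5 is written as near background. Markers of endothelium (6 of 6) and of macrophages (7 of 8) had means below 5, while cell cycle markers averaged above 5 in all types. Mesenchyme markers averaged 6.61 in phrenic, 6.08 in LMC radial and 5.10, close to background, in C3-C5 GFP-only neurons. Both of these lists had their highest group means in phrenic neurons. The array means of the mesenchyme markers ranged from 5.57 to 7.47 in phrenic, 5.32 to 6.62 in LMC radial and 4.79 to 5.33 in C3-C5 GFP-only arrays. The cell cycle markers ranged from 6.44 to 8.19, 5.89 to 6.86 and 5.82 to 6.35 in the same order of types. Phrenic replicate 4 stood apart within its group, with the highest mesenchyme (7.47) and cell cycle (8.19) means of all arrays and the lowest motor neuron mean of the phrenic arrays (8.64).

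**Figure D1:**
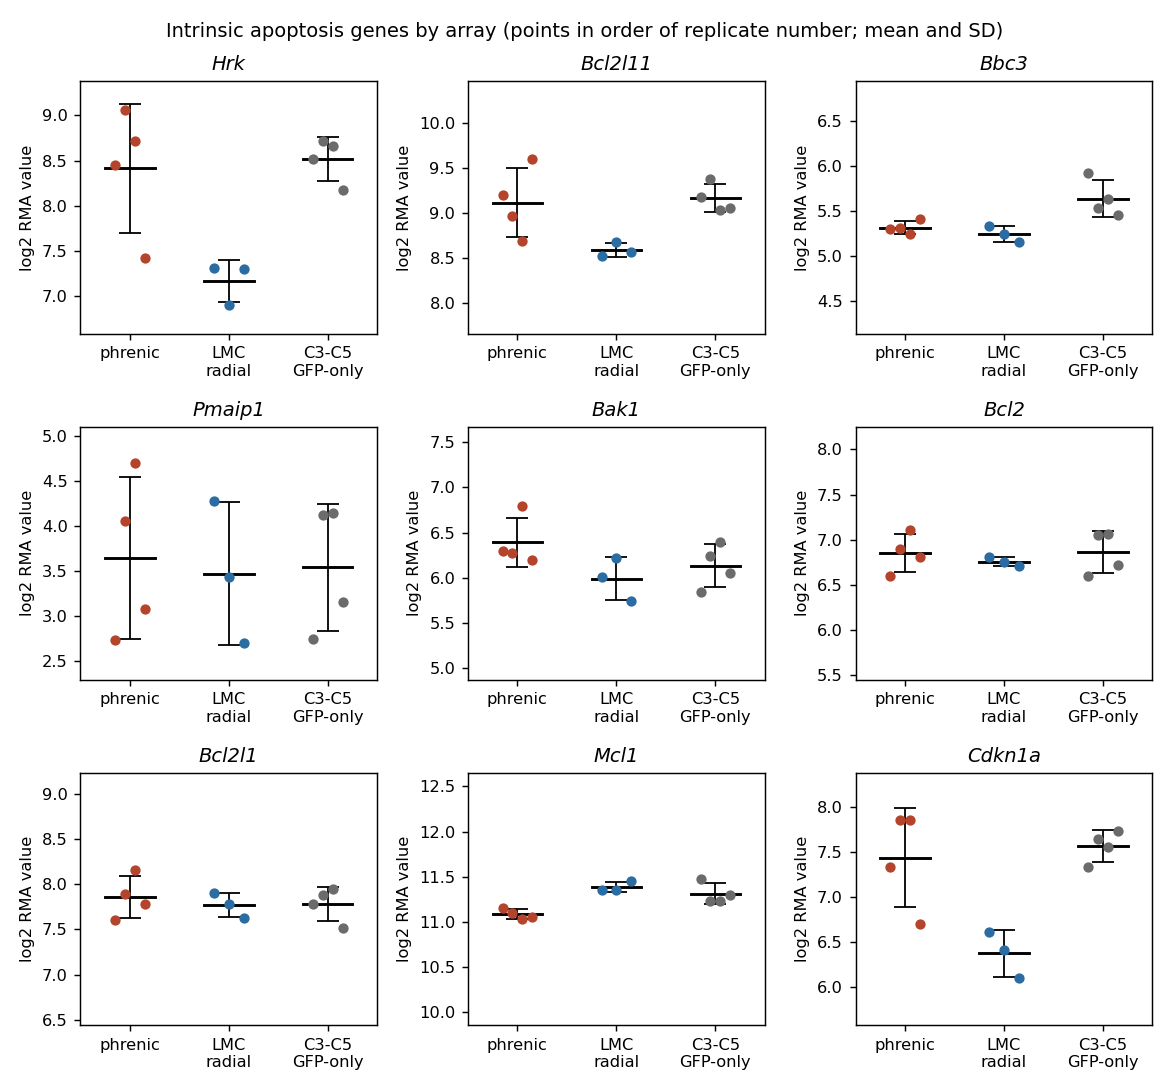
Level of each measured gene on the log2 scale (vertical axis, same span in every panel) in each array, with 1 panel per gene, phrenic left, LMC radial in the middle and C3-C5 GFP-only right. Points are arrays in order of replicate number, the thick bar is the group mean and the thin bars span 1 SD either side. For Hrk and Cdkn1a the 3 LMC radial arrays lie below all 8 others, and for Mcl1 the 4 phrenic arrays lie below all 7 others.

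By their brightest probe sets, only Hrk and Cdkn1a of the 9 measured genes passed the test in any of the 6 comparisons, in each case with lower levels in LMC radial neurons. A gene passed at an adjusted p under 0.05 in limma, with adjustment over all 45037 probe sets. Against LMC radial neurons phrenic neurons were higher in these 2 and lower in none, where 6.61% of all probe sets passed in either direction and 3.48% were higher. Against C3-C5 GFP-only neurons LMC radial neurons were lower in the same 2 and higher in none, where 3.76% passed in either direction and 1.88% were lower. Between phrenic and C3-C5 GFP-only neurons, 0 of 9 passed in limma, where 1.96% of all probe sets passed. Of the 9, 2 (Bbc3 and Mcl1) had an unadjusted p under 0.05 there, as did 13% of all probe sets. Among the brightest probe sets of the 18193 genes, the shares passing were 6.88%, 3.73% and 2.74% in the order of comparisons above. The median log2 difference over the 9 genes was 0.17 for phrenic minus LMC radial, -0.05 for phrenic minus C3-C5 GFP-only and -0.14 for LMC radial minus C3-C5 GFP-only. Over all probe sets tested, those medians were -0.01, -0.00 and 0.00. These comparisons share arrays, so their results are not independent of each other.

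**Figure D2:**
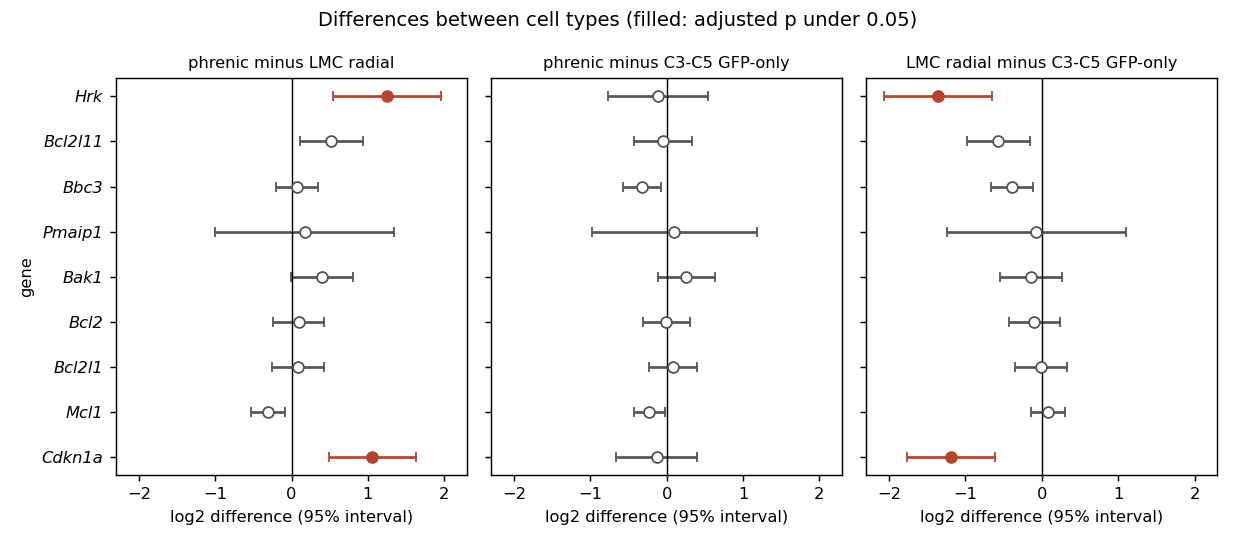
Log2 difference of each of the 9 measured genes (horizontal axis, with 95% interval) for phrenic minus LMC radial, phrenic minus C3-C5 GFP-only and LMC radial minus C3-C5 GFP-only. Filled points passed at an adjusted p under 0.05. Hrk (1.25 and -1.35) and Cdkn1a (1.06 and -1.19) are filled in the panels that include LMC radial neurons, and no point is filled for phrenic minus C3-C5 GFP-only.

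Hrk encodes Harakiri, a neuronally expressed BH3-only protein that binds the guardians Bcl-2 and Bcl-xL. It measured 8.45, 9.06, 8.72 and 7.42 in phrenic replicates 1 to 4, 7.31, 6.90 and 7.30 in LMC radial replicates 1 to 3, and 8.52, 8.72, 8.67 and 8.18 in C3-C5 GFP-only replicates 1 to 4. Every LMC radial array lay below every other array, although phrenic replicate 4 lay just above the highest of them. The means were 8.41 ± 0.71 (SD, n = 4) in phrenic, 7.17 ± 0.23 (n = 3) in LMC radial and 8.52 ± 0.24 (n = 4) in those of C3-C5 GFP-only. Phrenic neurons thus held 2.37-fold more Hrk signal than LMC radial neurons (log2 difference 1.25 ± 0.32 SE, adjusted p = 0.0428, limma). LMC radial neurons held 2.56-fold less than C3-C5 GFP-only neurons (-1.35 ± 0.32, adjusted p = 0.0437). Phrenic and C3-C5 GFP-only neurons differed by -0.11 ± 0.30 (adjusted p = 0.938), an amount within their spread, with a 95% interval from -0.76 to 0.55. In these bulk samples, fewer cells that express a gene and less of its RNA per cell cannot be told apart. The second Hrk probe set lay between 3.93 and 4.70 in all 11 arrays, near background, and none of its 3 pairwise differences exceeded 0.05 in size.

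Cdkn1a followed the same order of types. Its values were 7.33, 7.86, 7.85 and 6.70 in phrenic replicates 1 to 4, 6.62, 6.42 and 6.10 in LMC radial replicates 1 to 3, and 7.33, 7.65, 7.55 and 7.74 in C3-C5 GFP-only replicates 1 to 4. Again the 3 LMC radial arrays were the lowest of the 11, and phrenic replicate 4 was the next. The means were 7.43 ± 0.55 (SD, n = 4) in phrenic, 6.38 ± 0.26 (n = 3) in LMC radial and 7.57 ± 0.18 (n = 4) in those of C3-C5 GFP-only. The level in phrenic neurons was 2.08-fold that in LMC radial neurons (log2 difference 1.06 ± 0.26 SE, adjusted p = 0.0357). In LMC radial neurons it was 2.28-fold lower than in C3-C5 GFP-only neurons (-1.19 ± 0.26, adjusted p = 0.0319). The phrenic minus C3-C5 GFP-only difference was -0.13 ± 0.24 (adjusted p = 0.901, 95% interval -0.66 to 0.40). The second Cdkn1a probe set, with group means of 5.85, 5.03 and 5.72 for phrenic, LMC radial and C3-C5 GFP-only neurons, gave 0.82 (adjusted p = 0.0656) and -0.69 (adjusted p = 0.137) for the 2 comparisons with LMC radial neurons.

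The study design also names a comparison of each type with the overall expression, for which LMC radial neurons were set against the mean of the others. There Hrk was lower by a log2 difference of -1.30 ± 0.28 (adjusted p = 0.0215) and Cdkn1a by -1.12 ± 0.23 (adjusted p = 0.0161). These 2 of 9 genes passed, beside 7.02% of all probe sets in either direction and 3.37% lower. Phrenic neurons against the mean of the others gave 0 of 9, where 3.85% of all probe sets passed. At an unadjusted p under 0.05 there was 1 (Mcl1), beside 17.5% of all probe sets. C3-C5 GFP-only neurons against the mean of the others gave 0 of 9 as well, where 0.973% of all probe sets passed. At an unadjusted p under 0.05 there were 3 (Hrk, Bbc3 and Cdkn1a), beside 14.8% of all probe sets. Among the brightest probe sets of all genes, 7.07% passed for LMC radial, 4.86% for phrenic and 1.2% for C3-C5 GFP-only neurons.

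In both comparisons with LMC radial neurons the sign of the Hrk and Cdkn1a differences held in all 25 alternative fits, but the calls lay close to the threshold. Leaving out phrenic replicate 4 raised the phrenic minus LMC radial difference to 1.58 for Hrk (adjusted p = 0.000941) and 1.30 for Cdkn1a (adjusted p = 0.00218). Of the other 10 arrays, leaving out C3-C5 GFP-only replicate 1 kept the Cdkn1a call of that comparison and none kept that of Hrk, with adjusted p-values up to 0.146 for Hrk and 0.134 for Cdkn1a. For LMC radial minus C3-C5 GFP-only, leaving out any LMC radial array or C3-C5 GFP-only replicate 2, 3 or 4 ended both calls (adjusted p up to 0.140 for Hrk and 0.115 for Cdkn1a), and leaving out phrenic replicate 1 or 3 or C3-C5 GFP-only replicate 1 ended that of Hrk. All 3 LMC radial arrays were among the 7 arrays with the higher 25th percentile of values (3.26 to 3.38, against 3.18 to 3.20 in replicates 2 and 3 of both other types). Within those 7 arrays phrenic minus LMC radial was 0.77 for Hrk (adjusted p = 0.299) and 0.64 for Cdkn1a (adjusted p = 0.285). LMC radial minus C3-C5 GFP-only was -1.18 (adjusted p = 0.256) and -1.15 (adjusted p = 0.191) there. The difference between 3′ and 5′ Actb probe sets, a sign of RNA integrity, was 1.05 to 2.15 in phrenic, 1.01 to 1.12 in LMC radial and 1.07 to 1.98 in C3-C5 GFP-only arrays. With it as a covariate the Hrk differences were 1.16 (adjusted p = 0.221) and -1.29 (adjusted p = 0.159), and those of Cdkn1a were 1.03 (adjusted p = 0.180) and -1.17 (adjusted p = 0.121).

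The array means of the 8 motor neuron markers moved the same way, at 8.64 to 8.96 in phrenic, 8.09 to 8.34 in LMC radial and 8.89 to 9.07 in C3-C5 GFP-only arrays. Single markers did not move alike, with phrenic minus LMC radial differences from -0.08 to 2.69, the largest being that of Isl1. Of the 8 markers, 2 passed for phrenic minus LMC radial, Isl1 (2.69, adjusted p = 0.00521) and Mnx1 (0.87, adjusted p = 0.00123), beside 6.61% of all probe sets. The median difference of the list was 0.25, so the phrenic minus LMC radial gap in the list mean rests in part on Isl1. For LMC radial minus C3-C5 GFP-only 3 markers were lower and none higher, beside 3.76% of all probe sets, with a median of -0.60. For phrenic minus C3-C5 GFP-only 1 was lower and none higher, beside 1.96%. The part of these markers in the Hrk and Cdkn1a differences was not tested. With the mesenchyme marker mean as a covariate, phrenic minus LMC radial was 1.48 for Hrk (adjusted p = 0.0166) and 1.12 for Cdkn1a (adjusted p = 0.0488), while LMC radial minus C3-C5 GFP-only was -0.92 (adjusted p = 0.206) and -1.07 (adjusted p = 0.140). With the cell cycle marker mean as a covariate, both genes passed in both comparisons, and phrenic minus LMC radial was 1.76 for Hrk and 1.30 for Cdkn1a.

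**Figure D3:**
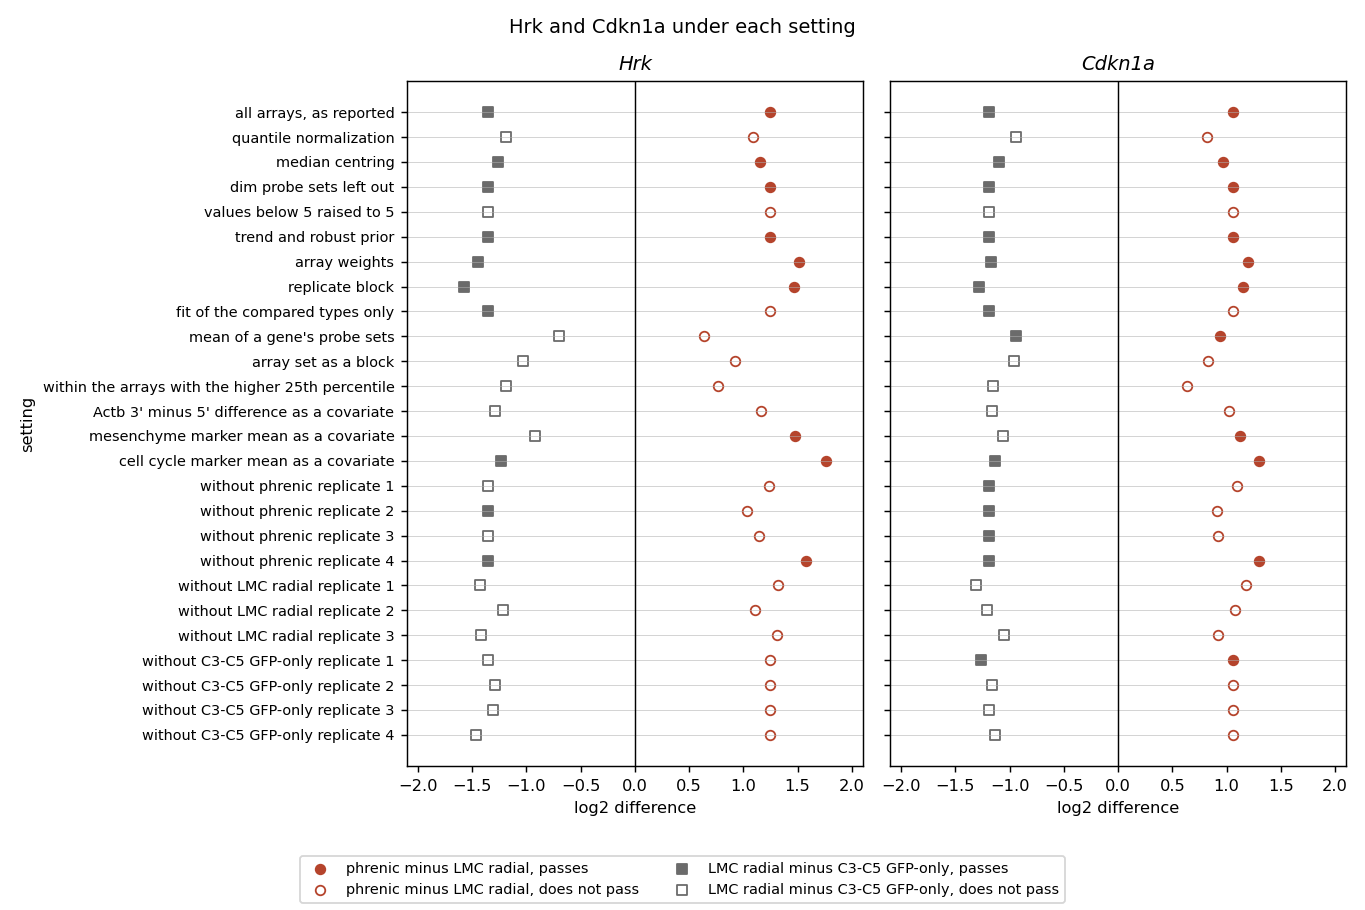
Log2 differences of Hrk and Cdkn1a (horizontal axis) in the fit of all 11 arrays and in each alternative fit (rows). Circles are phrenic minus LMC radial, squares are LMC radial minus C3-C5 GFP-only, and filled symbols passed at an adjusted p under 0.05. All circles lie above 0 and all squares below 0, with Hrk circles between 0.64 and 1.76.

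The promoter sequences of Hrk and Cdkn1a, the 2 of the 9 genes that passed, are shown for their motif content. No link between motifs and values was tested. They are the 250 bases before each start site, credited to RefSeq (GRCm38.p6), on the plus strand and written 5′ to 3′, with motif matches in capitals. The Cdkn1a locus has 2 start sites in that table. Positions are relative to the start site, which lies just after the last base.
Hrk, chr5:118169514-118169763: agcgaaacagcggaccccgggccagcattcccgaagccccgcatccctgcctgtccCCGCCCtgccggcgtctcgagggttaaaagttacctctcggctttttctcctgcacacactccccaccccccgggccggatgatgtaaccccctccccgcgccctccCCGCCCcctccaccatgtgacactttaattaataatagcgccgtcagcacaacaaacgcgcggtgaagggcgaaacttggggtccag
Cdkn1a upstream start, chr17:29090729-29090978: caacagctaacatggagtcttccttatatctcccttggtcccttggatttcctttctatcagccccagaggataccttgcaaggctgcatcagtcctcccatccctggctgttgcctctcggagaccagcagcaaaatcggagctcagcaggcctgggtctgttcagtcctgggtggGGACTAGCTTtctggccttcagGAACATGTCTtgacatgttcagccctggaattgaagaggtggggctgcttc
Cdkn1a downstream start, chr17:29093519-29093768: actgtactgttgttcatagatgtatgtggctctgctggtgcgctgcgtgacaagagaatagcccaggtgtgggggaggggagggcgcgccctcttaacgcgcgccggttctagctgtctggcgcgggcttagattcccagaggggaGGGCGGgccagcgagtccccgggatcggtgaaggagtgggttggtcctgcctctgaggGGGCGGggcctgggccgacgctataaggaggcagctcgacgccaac

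Motifs were searched on both strands, and matches are descriptions of letters only. The capitals in Hrk mark 2 GC boxes (GGGCGG, here on the opposite strand) that start at -194 and -87. Those of the upstream Cdkn1a start mark 2 p53 half-sites at -73 and -51, and those of the downstream start mark 2 GC boxes at -104 and -46. The p53 half-site was 3 purines (A or G), C, 2 of A or T, G, and 3 pyrimidines (C or T). The bases right after the match at -51 meet this pattern except at their first base, and are not marked. A p53 half-site was present in 7.13% of the 32851 promoters in the table and a GC box in 32.7%. Among 15 promoters of 9 of the genes, 2 held a p53 half-site (in Cdkn1a and Bax) and 10 a GC box. The other motifs searched were the TATA box (TATAAA, 12.4% of all promoters), CCAAT (33.8%), the E-box CACGTG (6.02%), the AP-1 site TGANTCA (6.75%) and the FOXO site TGTTTAC (3.17%), and none of them matched in the 3 sequences shown. The p53 half-site was added to the search after the sequences had been read.

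Bcl2l11 encodes Bim, a BH3-only protein that binds all the main guardians and can activate Bax and Bak. Its values were 9.20, 8.97, 8.69 and 9.60 in phrenic, 8.53, 8.68 and 8.57 in LMC radial and 9.18, 9.37, 9.04 and 9.06 in C3-C5 GFP-only arrays. The LMC radial arrays lay below all others, with phrenic replicate 3 only just above them. The differences were 0.52 ± 0.19 (adjusted p = 0.129) for phrenic minus LMC radial, -0.05 ± 0.17 (adjusted p = 0.956) for phrenic minus C3-C5 GFP-only and -0.57 ± 0.19 (adjusted p = 0.123) for LMC radial minus C3-C5 GFP-only, and none passed. The other bright Bcl2l11 probe set, with group means of 8.74, 8.63 and 8.80 for phrenic, LMC radial and C3-C5 GFP-only neurons, gave differences of 0.11, -0.06 and -0.17 that lay within the spread of arrays. A dim probe set did pass for phrenic minus C3-C5 GFP-only (-0.63 ± 0.14, adjusted p = 0.0418), with means of 4.58 and 5.21 at the edge of background. The probe sets of Bcl2l11 therefore did not give 1 pattern.

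Bbc3, which encodes Puma, was dim, at 5.30, 5.31, 5.25 and 5.41 in phrenic, 5.33, 5.25 and 5.16 in LMC radial and 5.92, 5.54, 5.63 and 5.46 in C3-C5 GFP-only arrays. The 4 C3-C5 GFP-only arrays were the highest of the 11, with no overlap. Even so, phrenic minus C3-C5 GFP-only was -0.32 ± 0.11 (adjusted p = 0.233) and LMC radial minus C3-C5 GFP-only -0.39 ± 0.12 (adjusted p = 0.109), and neither passed. Pmaip1, which encodes Noxa, a BH3-only protein that binds Mcl-1, was below 5 in all 11 arrays, from 2.70 to 4.69. The 4 arrays of the lower 25th percentile set were at 4.06, 4.69, 4.12 and 4.14, and its differences between types were 0.17, 0.10 and -0.07. None of these passed, at values near background.

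Bak1, the measured effector, had 6.29, 6.27, 6.80 and 6.20 in phrenic, 6.01, 6.21 and 5.74 in LMC radial and 5.84, 6.24, 6.40 and 6.05 in C3-C5 GFP-only arrays. The groups overlapped, and phrenic replicate 3 was the highest array. Phrenic minus LMC radial was 0.40 ± 0.18 (adjusted p = 0.232), phrenic minus C3-C5 GFP-only 0.26 ± 0.17 (adjusted p = 0.616) and LMC radial minus C3-C5 GFP-only -0.14 ± 0.18 (adjusted p = 0.705).

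Among the guardians, which hold Bax and Bak in check, Bcl2 and Bcl2l1 (Bcl-xL) were the flattest. Bcl2 lay between 6.59 and 7.11 in phrenic, 6.71 and 6.81 in LMC radial and 6.60 and 7.06 in C3-C5 GFP-only arrays, with differences of 0.09, -0.01 and -0.10. Their 95% intervals reached from -0.24 to 0.43, from -0.32 to 0.30 and from -0.43 to 0.23. For Bcl2l1 the ranges were 7.60 to 8.16 in phrenic, 7.63 to 7.90 in LMC radial and 7.51 to 7.94 in C3-C5 GFP-only arrays, with differences of 0.09, 0.08 and -0.01. The ranges overlapped for both genes. The 2 other Bcl2l1 probe sets with a mean of at least 5 had the opposite sign for phrenic minus LMC radial (-0.63 and -0.34), and neither passed (adjusted p = 0.210 and 0.512).

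Mcl1 encodes a short-lived guardian that dividing progenitors and young neurons depend on. It had 11.15, 11.10, 11.03 and 11.05 in phrenic, 11.36, 11.36 and 11.46 in LMC radial and 11.48, 11.23, 11.23 and 11.30 in C3-C5 GFP-only arrays. All 4 phrenic arrays were below all 7 others, over a narrow range. Phrenic minus LMC radial was -0.31 ± 0.10 (adjusted p = 0.0974) and phrenic minus C3-C5 GFP-only -0.23 ± 0.09 (adjusted p = 0.315), and LMC radial minus C3-C5 GFP-only was 0.08 ± 0.10. The 5 other Mcl1 probe sets had the same sign in both phrenic comparisons, from -0.58 to -0.12 against LMC radial and from -0.38 to -0.03 against C3-C5 GFP-only neurons, and none passed. They measure the same gene in the same arrays and are not independent measurements. The phrenic minus LMC radial difference passed when the variance prior was given a trend and fitted robustly (adjusted p = 0.0332) and with values below 5 raised to 5 (adjusted p = 0.0481).

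Arrays of 2 types did not overlap for 4 of the 9 genes between phrenic and LMC radial neurons (Hrk, Bcl2l11, Mcl1 and Cdkn1a), where 18.7% of all probe sets did not overlap. The count was 2 of 9 between phrenic and C3-C5 GFP-only neurons (Bbc3 and Mcl1), against 7.49%, and 4 of 9 between LMC radial and C3-C5 GFP-only neurons (Hrk, Bcl2l11, Bbc3 and Cdkn1a), against 23.1%. Cdkn1a had the smallest overall p of the 9 genes, and the genes whose values over the 11 arrays were most like its own were sought. By Pearson's r these were Ttc7b (0.961), Lpcat2 (0.953), Rabgap1l (0.949), Peg10 (0.947) and Marchf11 (0.941), each in 11 arrays that share their type and array set. Each correlation is a description and carries no p.

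Other genes of the pathway were taken from 5 lists. Of the other BH3-only proteins and Bcl-2 relatives, 11 of 15 were measured and 0 passed in the 3 pairwise comparisons in limma. At an unadjusted p under 0.05 there were 2 for phrenic minus LMC radial, 1 for phrenic minus C3-C5 GFP-only and 1 for LMC radial minus C3-C5 GFP-only, where 22.1%, 13% and 20% of all probe sets had such a p. Of the apoptosome, caspases and their inhibitors, 16 of 19 were measured and 0 passed, with 1, 1 and 4 at an unadjusted p under 0.05 in the same order of comparisons. Trp53 was not analysed here for want of a probe set with its symbol alone. Of p53 and its targets, 19 of 20 were measured and 2 were higher in phrenic than in LMC radial neurons, with none lower, where 3.48% of all probe sets were higher. In the other 2 pairwise comparisons 0 passed in limma, and 3 of 19 had an unadjusted p under 0.05 in each, beside 13% and 20% of all probe sets.

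Those 2 were Plk2, a stress-induced kinase of the polo family, and Phlda3, a p53-induced inhibitor of Akt. Plk2 had 7.49, 6.45, 6.99 and 6.40 in phrenic, 5.39, 5.61 and 4.76 in LMC radial and 5.28, 6.51, 6.16 and 6.06 in C3-C5 GFP-only arrays. All phrenic arrays were above all LMC radial arrays, while the C3-C5 GFP-only arrays overlapped both. Phrenic minus LMC radial was 1.57 ± 0.34 (2.98-fold, adjusted p = 0.0192), a call lost without LMC radial replicate 1 (1.64, adjusted p = 0.0525) or 3 (1.33, adjusted p = 0.0815). It was also lost in 5 of the 14 alternative fits that did not leave out 1 array, at adjusted p-values up to 0.118. Phlda3 passed at 0.65 ± 0.14 (adjusted p = 0.0201), but its means of 5.21 in phrenic and 4.57 in LMC radial neurons were near background. With values below 5 raised to 5 its difference was 0.21 (adjusted p = 0.490), and without LMC radial replicate 1 or 3 its adjusted p was 0.0606 or 0.0819.

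The upstream stress kinases and factors held the largest differences. Of 22 genes 19 were measured: 1 was higher and 3 were lower in phrenic than in LMC radial neurons, 1 was lower in phrenic than in C3-C5 GFP-only neurons, and 1 was lower in LMC radial than in C3-C5 GFP-only neurons. Of all probe sets, 6.61%, 1.96% and 3.76% passed in those comparisons. At an unadjusted p under 0.05 the counts were 7, 8 and 2 of 19, beside 22.1%, 13% and 20% of all probe sets. Map3k5 encodes ASK1, a kinase that activates the Jun kinase and p38 pathways under stress. It measured 10.08, 9.66, 9.68 and 10.13 in phrenic, 7.01, 8.04 and 7.04 in LMC radial and 9.32, 9.40, 9.16 and 9.51 in C3-C5 GFP-only arrays. The 3 types did not overlap, with phrenic highest and LMC radial lowest. Phrenic minus LMC radial was 2.52 ± 0.24 (5.75-fold, adjusted p = 0.000142), LMC radial minus C3-C5 GFP-only was -1.99 ± 0.24 (3.96-fold lower, adjusted p = 0.00182), and phrenic minus C3-C5 GFP-only, at 0.54 ± 0.22, did not pass (adjusted p = 0.320). The first of these passed in all 25 alternative fits, with differences between 1.21 and 2.86. The second passed in all 11 fits that left out 1 array and failed in 1 of the 14 others (adjusted p up to 0.0896). In those 14 its differences were between -2.21 and -0.94. A second Map3k5 probe set was near background, with a mean of 4.34, and did not pass.

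Mapk10 encodes JNK3, the Jun kinase most restricted to neurons. It had 8.71, 8.82, 9.15 and 9.61 in phrenic, 10.12, 9.98 and 10.03 in LMC radial and 10.38, 10.34, 10.14 and 10.36 in C3-C5 GFP-only arrays. The phrenic arrays were the 4 lowest of the 11. Phrenic minus LMC radial was -0.97 ± 0.19 (1.96-fold lower, adjusted p = 0.0124), lost without LMC radial replicate 1 (-0.93, adjusted p = 0.0507), and phrenic minus C3-C5 GFP-only was -1.23 ± 0.17 (2.35-fold lower, adjusted p = 0.00458). Among the alternative fits that did not leave out 1 array, the first call was lost in 2 of 14 and the second in 2 of 15. The adjusted p reached 0.164 in each. A further Mapk10 probe set gave -1.04 (adjusted p = 0.000233) and -1.50 (adjusted p = 2.48e-05) for the same comparisons. It also passed for LMC radial minus C3-C5 GFP-only (-0.46, adjusted p = 0.0383), where the brightest probe set gave -0.26 and did not pass (adjusted p = 0.475). Another Mapk10 probe set, near background with a mean of 3.60, gave -0.07 and -0.03 for the phrenic comparisons and did not pass.

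Atf4 and Ddit3 (Chop) encode transcription factors of the stress response to misfolded proteins. Atf4 averaged 10.75 ± 0.17 in phrenic, 11.29 ± 0.21 in LMC radial and 11.06 ± 0.09 in C3-C5 GFP-only neurons, and phrenic minus LMC radial was -0.54 ± 0.13 (adjusted p = 0.0359). The other bright Atf4 probe set, at 9.17 in phrenic and 9.58 in LMC radial neurons, gave -0.41 and did not pass (adjusted p = 0.238). For Ddit3 the means were 6.68 ± 0.20, 7.34 ± 0.09 and 7.25 ± 0.30 in the same order of types, and phrenic minus LMC radial was -0.66 ± 0.17 (adjusted p = 0.0423). Its other probe set, near background with a mean of 4.78, gave 0.22 (adjusted p = 0.712). Each call was lost in 8 of the 11 fits that left out 1 array, at adjusted p-values up to 0.137 for Atf4 and 0.138 for Ddit3. Of the 14 other alternative fits, 7 ended the Atf4 call (adjusted p up to 0.272) and 10 that of Ddit3 (up to 0.459).

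Of the death receptor list, 10 of 11 genes were measured, and Cflar (FLIP, an inhibitor of caspase-8) was the only one to pass in a pairwise comparison, phrenic minus C3-C5 GFP-only, where 1.96% of all probe sets passed. It had 6.39, 6.37, 6.01 and 6.89 in phrenic, 5.81, 5.71 and 5.59 in LMC radial and 5.27, 5.55, 5.79 and 4.67 in C3-C5 GFP-only arrays. The phrenic arrays were the 4 highest of the 11. Phrenic minus C3-C5 GFP-only was 1.09 ± 0.24 (2.13-fold, adjusted p = 0.0448), and leaving out 1 array ended this call in 9 of 11 fits, with differences between 0.87 and 1.25. With replicate number as a block the difference was again 1.09 and did not pass (adjusted p = 0.109). Phrenic replicate 4, the array with the most mesenchyme and cell cycle signal, was the highest Cflar array, and without it the difference was 0.93 (adjusted p = 0.0672). With the mesenchyme marker mean as a covariate it was 0.84 (adjusted p = 0.521). The other Cflar probe sets were near background, with means from 2.99 to 4.05. Their phrenic minus C3-C5 GFP-only differences were between -0.04 and 0.22, and none passed.

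**Figure D4:**
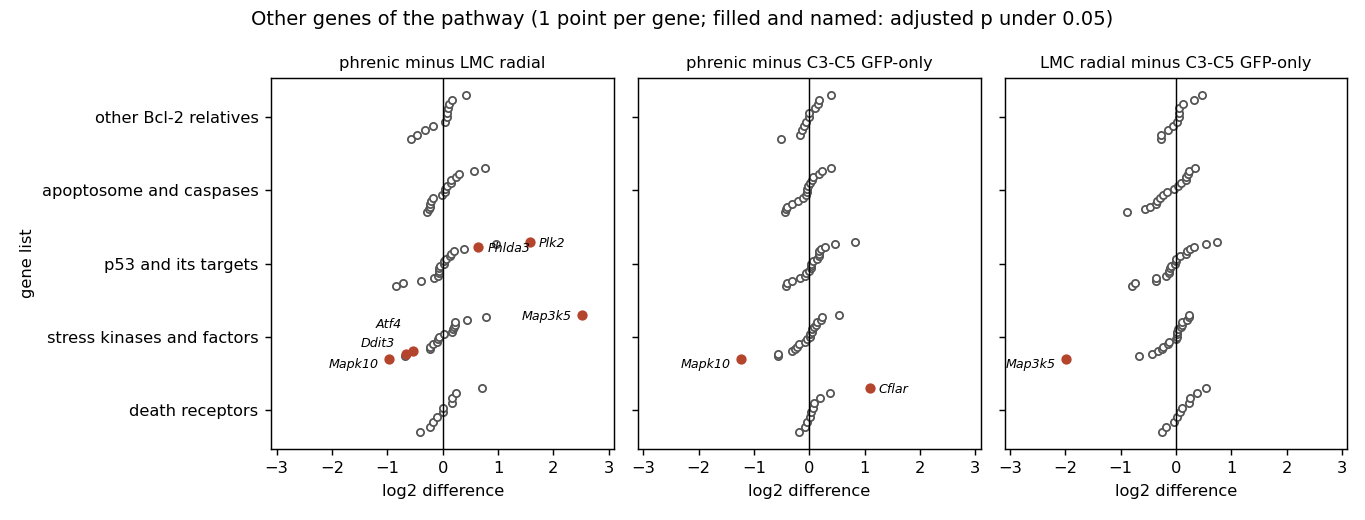
Log2 difference of each measured gene in the 5 other pathway lists (rows) for the 3 pairwise comparisons (panels), with 1 point per gene. Filled, named points passed at an adjusted p under 0.05. Map3k5 lies farthest from 0, at 2.52 for phrenic minus LMC radial and -1.99 for LMC radial minus C3-C5 GFP-only.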

How the data were processed

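RNA of 11 sorted motor neuron samples was measured on Affymetrix arrays, 1 per sample. The deposited values are log2 values per probe set, made by the authors with RMA (background correction, quantile normalization and probe summary), per the submitters' processing notes; the version is not given in the sources used here. Gene symbols came from the platform annotation.

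Groups follow the sample titles. A mean per type was fitted to the deposited log2 values with limma 3.58.1 in R 4.3.3 (8 residual and 2.92 prior degrees of freedom), over 45037 probe sets, leaving out 64 control probe sets and applying no other filter. Tests were two-sided with Benjamini-Hochberg adjustment within each of 6 comparisons (each pair of types, and each type against the unweighted mean of the others), and an adjusted p under 0.05 passed. The number of arrays limits the precision.

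The 10 genes, the lists and the tests were chosen with earlier results of these data known. All 10 genes are described whatever their result, with list genes that passed in a pairwise comparison (up to 5 per list) and the 5 genes most correlated with the member of smallest overall p. Alternatives covered normalization, dim probe sets, the variance prior, array weights, a replicate block, probe set averaging, array set, 3′ to 5′ Actb difference, marker covariates and leaving out each array. Same-numbered phrenic and C3-C5 GFP-only arrays deviated together from their type means (r = 0.125 to 0.224 in 4 pairs). Their differently numbered pairs gave -0.25 to 0.28, replicates 2 and 3 of both types being the arrays with the lower 25th percentile. Within an array set these pairs were as high, at 0.28 and 0.269 in the lower set and 0.186 and 0.179 in the higher set. The values therefore do not show that the numbers pair the arrays. The 6 same-numbered pairs with LMC radial arrays gave -0.08 to 0.05 and were not taken as paired.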

Additional observations from a re-analysis of the deposited data

Results flagged for a closer look

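Dixon's test was applied to 32 groups of 4 arrays, namely the phrenic and C3-C5 GFP-only groups of each named gene, and 3 arrays lay farther from their replicates than its critical value at the 95% level, where chance gives about 1 group in 20. Bak1 in phrenic replicate 3 was 6.80, above the other phrenic arrays. Mapk10 in C3-C5 GFP-only replicate 3 was 10.14, below the other C3-C5 GFP-only arrays. Ddit3 in C3-C5 GFP-only replicate 3 was 6.80, also below the others of its group. The Ddit3 and Mapk10 values came from the same array, and the cause was not tested.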

How the results depend on the processing

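Of the 9 measured genes, 2 passed for phrenic minus LMC radial. The count was 0 under quantile normalization and in the fit of the compared types only, where 5.95% and 3.13% of all probe sets passed. It was 0 with the array set as a block (4.43%), within the arrays of the higher 25th percentile (1.73%) and with the Actb covariate (2.28%). It was 1 with values below 5 raised to 5 (Mcl1, beside 2.32% of all probe sets). With the mean of a gene's probe sets it was 1 (Cdkn1a, beside 7.48% of genes). Under the trend and robust prior it was 3 (Hrk, Mcl1 and Cdkn1a, beside 7.18% of all probe sets). For LMC radial minus C3-C5 GFP-only the count in the reported fit was also 2, beside 3.76% of all probe sets. It was 0 under quantile normalization (3.0%), the floor of 5 (0.848%) and the array set block (1.87%). The higher-percentile arrays (0.218%), the Actb covariate (1.22%) and the mesenchyme covariate (1.71%) gave 0 as well. The mean of a gene's probe sets gave 1 (Cdkn1a, beside 4.58% of genes). The fit of the compared types only gave 3, beside 8.16% of all probe sets. Array weights gave 4 (Hrk, Bcl2l11, Bbc3 and Cdkn1a), beside 14.8%. For LMC radial against the mean of the others the reported count was also 2, beside 7.02% of all probe sets. It was 0 under the floor (1.74%), the array set block (3.44%), the higher-percentile arrays (1.22%) and the Actb covariate (1.91%). With array weights it was 3, beside 15.2%. For phrenic against the mean of the others the count was 0 in the reported fit, beside 3.85% of all probe sets. It was 1 (Mcl1) under the floor (2.3%) and under the trend and robust prior (4.06%). With the cell cycle covariate, chosen after seeing the data, it was 1 (Hrk), beside 2.57%. Leaving out 1 array gave counts from 0 to 2 for phrenic minus LMC radial, 0 to 3 for LMC radial minus C3-C5 GFP-only and for LMC radial against the others, and 0 to 2 for phrenic against the others, with 2 there without phrenic replicate 4 (Hrk and Cdkn1a). For the other comparisons no alternative called a member. The cause of these changes was not tested, beyond the fewer arrays or shared spread that some alternatives use by construction. Hrk and Cdkn1a kept their sign in both comparisons with LMC radial neurons in all 25 alternatives; no called difference of any of the 9 genes changed sign. With replicate number as a block, the member counts stayed at 2, 0 and 2 in the pairwise comparisons and at 0, 2 and 0 against the mean of the others, while all probe sets called for phrenic minus LMC radial numbered 3537 with the block and 2979 without it. For phrenic minus C3-C5 GFP-only, the block ended the call of Cflar and changed no other call of the 9 genes and the 7 named pathway genes, and 862 probe sets were called, against 882. Over all probe sets, the calls for phrenic minus LMC radial numbered 1046 under the floor, 1026 with the Actb covariate, 778 within the higher-percentile arrays and 1410 in the fit of 2 types, and for LMC radial minus C3-C5 GFP-only 6685 with array weights and 98 within the higher-percentile arrays, against 1694. Pmaip1 lay below 5 in all 11 arrays, so its differences rest on values near background.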

Other observations

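Phrenic replicate 4 had the highest neural progenitor (7.03) and interneuron (6.00) marker means of the 11 arrays as well. Of the interneuron markers 4 of 6 measured genes had means below 5. Sensory neuron markers (3 of 6 measured) were at 5.52 to 6.27 in phrenic, 5.70 to 5.96 in LMC radial and 5.51 to 6.11 in C3-C5 GFP-only arrays, and red blood cell markers (3 of 5 measured) at 3.15 to 5.62, 4.36 to 5.79 and 4.94 to 5.43 in the same order of types.

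Pmaip1 was above 4 in the 4 arrays of the lower 25th percentile set and in LMC radial replicate 1 (4.28), and below 4 in the other 6 arrays. Peg10, an imprinted gene derived from a retrotransposon and one of the genes most correlated with Cdkn1a, had 9.91, 10.04, 10.31 and 8.42 in phrenic, 7.48, 7.73 and 6.98 in LMC radial and 8.64, 9.85, 9.85 and 9.52 in C3-C5 GFP-only arrays.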
